A study of Mus musculus with 10 samples.

Results

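Irf4, Irf8, Batf and Batf3 encode 4 transcription factors that work together in lymphocytes and myeloid cells, and RNA polymerase II at their loci is described here in Th1 cells of the mouse, which secrete interferon gamma. The 4 genes were chosen by name, among 10419 genes with an assigned promoter peak in any library, and each of the 4 had at least 1 assigned promoter peak in each of the 6 polymerase libraries. In all, 28 promoter peaks were assigned to them. The tests ran over 9908 genes, those seen in 2 or more libraries, and included all 4.

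The cells came from the mouse strain Balb/c DO11.10, whose T cells carry a transgenic receptor for an ovalbumin peptide. In all groups CD4+ cells had been primed toward Th1 with IL-12 and anti-IL-4, grown with an IL-2 analogue and then rested without it. There were 3 groups of 2 libraries: rested cells without restimulation (NR), and cells after 30 min or 2 h of restimulation. The stimulus was plate-bound anti-CD3 (5 µg/ml) together with anti-CD28 in solution (2.5 µg/ml). Total polymerase was precipitated with the antibody 8WG16, which binds the C-terminal repeats of its largest subunit, after fixation in 1% formaldehyde for 10 min. The labels do not say whether the libraries of a group came from separate cultures or animals, so p-values here cover no more than the spread among the libraries, and that spread may be technical. In a population of cells, polymerase in fewer cells and less polymerase per cell cannot be told apart. The series also lists libraries for trimethylated lysine 36 of histone H3 and for input DNA, which were not analysed here.

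IRF4 and IRF8 are interferon regulatory factors that bind DNA weakly alone and strongly beside a partner. In T cells the partner of IRF4 is often a dimer of BATF with a JUN protein, at composite sites that join an AP-1 motif and a GAAA motif. IRF4 is induced by antigen receptor signals in proportion to their strength and is needed for expansion and effector differentiation of T cells. IRF8 is best known as a factor of myeloid and dendritic cells and is also induced in T cells by receptor signals. BATF and BATF3 are small leucine zipper proteins of the AP-1 family without a transactivation domain, and BATF3 is required for cross-presenting dendritic cells.

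The promoter sequences are shown because the summits of the promoter peaks over the starts of Irf4, Irf8 and Batf lay close to these bases. Each such summit lay within 67 bp of the start in the deposited annotation. For Irf4 the start in RefSeq lies 25 bp before that start. Each sequence is the 250 bases before the start in RefSeq (build GRCm38.p6, plus strand, 5′ to 3′). The windows are chr13:30748983-30749232 for Irf4, chr8:120736108-120736357 for Irf8, chr12:85686470-85686719 for Batf and chr1:191098164-191098413 for Batf3. Capitals mark each match, on either strand, to 1 of 9 motifs.
Irf4: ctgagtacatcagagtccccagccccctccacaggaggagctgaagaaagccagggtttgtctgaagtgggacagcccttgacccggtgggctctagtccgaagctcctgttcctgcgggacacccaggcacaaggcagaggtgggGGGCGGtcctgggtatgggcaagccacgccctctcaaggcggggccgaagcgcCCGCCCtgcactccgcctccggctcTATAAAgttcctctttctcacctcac
Irf8: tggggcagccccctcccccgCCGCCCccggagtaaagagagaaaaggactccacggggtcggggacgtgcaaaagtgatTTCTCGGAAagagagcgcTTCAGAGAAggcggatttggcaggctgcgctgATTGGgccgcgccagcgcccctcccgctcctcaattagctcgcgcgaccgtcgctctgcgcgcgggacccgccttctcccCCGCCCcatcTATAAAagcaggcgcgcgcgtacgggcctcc
Batf: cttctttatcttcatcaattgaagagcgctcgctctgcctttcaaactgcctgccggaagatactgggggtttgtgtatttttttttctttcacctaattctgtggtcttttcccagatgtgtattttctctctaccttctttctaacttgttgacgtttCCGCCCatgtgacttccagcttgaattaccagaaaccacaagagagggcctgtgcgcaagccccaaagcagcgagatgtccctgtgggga
Batf3: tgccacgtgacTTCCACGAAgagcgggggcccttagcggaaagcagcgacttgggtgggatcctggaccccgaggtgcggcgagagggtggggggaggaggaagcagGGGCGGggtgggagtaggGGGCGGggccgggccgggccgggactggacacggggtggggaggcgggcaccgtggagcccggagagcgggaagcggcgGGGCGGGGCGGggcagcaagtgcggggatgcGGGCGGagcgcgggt
The TATA box TATAAA was found at -26 to -21 of Irf4 and at -31 to -26 of Irf8, counted from the RefSeq start, and not in the windows of Batf or Batf3. Of 32851 mouse promoters of the same length, 12.4% hold it. The GC box GGGCGG, which 32.7% hold, had 2 matches each in the Irf4 and Irf8 windows, 1 in that of Batf and 5 in that of Batf3, where 2 of the 5 share a base. The STAT motif TTCNNNGAA, which 7.02% hold, had 2 matches in Irf8 and 1 in Batf3. A CCAAT box (CCAAT, in 33.8% of promoters) was found in the Irf8 window alone among the 4. No window held the AP-1 motif TGANTCA (6.75% of promoters), the paired GAAA motif of IRF proteins (2.98%), the NF-kB motif (4.65%), the cyclic AMP element TGACGTCA (1.55%) or the composite NFAT and AP-1 motif (1.28%). The share of G and C was 63.6% for Irf4, 67.2% for Irf8, 46.4% for Batf and 76.0% for Batf3, beside a median of 52.4% over all promoters.

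The libraries differed in depth, which bears on each length given here. The peak lists held between 15330 and 23299 summits, of which between 9074 and 10680 belonged to promoter peaks. The lists hold no read counts, but the lowest local background coverage, divided by the coverage that 1 read adds, gives a relative depth. Set to 1 in NR replicate 1, it was 8.98 in NR replicate 2, 2.39 and 7.09 at 30 min and 3.76 and 8.43 at 2 h (replicates 1 and 2). Within each group the deeper library had the longer peaks over all genes, though the order across groups did not follow depth. The median promoter peak measured 725 and 920 bp in NR libraries, 692 and 1184.5 bp at 30 min and 987 and 1229 bp at 2 h. The 9 T cell markers, among them Cd3e, Cd4 and Lck, each had an assigned peak in each library, as did 4 or 5 of 5 Th1 markers. None of 5 B cell, 5 myeloid and 6 dendritic cell markers had one in any library, nor did Spi1, the PU.1 gene of myeloid and B cells. Cd8b1 was the 1 of 4 CD8 and NK markers with a peak, of 314, 521 and 576 bp in NR, 30 min and 2 h replicates 2.

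The value compared between libraries is the called length, the number of base pairs called as promoter peak and assigned to a gene by the authors. Values are given for replicate 1 and then replicate 2. Fitted changes are on the scale of log2(bp + 100), relative to the median of genes with a peak in all libraries, which itself shifted by 0.16 between 30 min and NR, by 0.48 between 2 h and NR and by 0.32 between 2 h and 30 min. They come from limma over all 6 libraries, with Benjamini-Hochberg adjustment over 9908 genes and an adjusted p under 0.05 as the threshold. At 30 min against NR none of the 4 genes passed, where 0.242% of all genes did, and 2 of the 4 had an unadjusted p under 0.05, as had 793 of 9908 genes. At 2 h against NR none passed, where 0.434% of all genes did, and all 4 had an unadjusted p under 0.05, as had 1249 of 9908 genes. At 2 h against 30 min none of the 4 passed, 0 of 9908 genes did, and 1 of the 4 and 513 of all genes had an unadjusted p under 0.05.

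Irf4 had the longest mean called length of the 4 genes at both times after restimulation, although in 30 min replicate 2 Irf8 was longer. Its peak covered 3513 and 2772 bp in NR libraries, 11442 and 23114 bp at 30 min and 23134 and 24360 bp at 2 h. Both stimulated groups lay above both NR libraries, without overlap. The shortest Irf4 peak was that of NR replicate 2, at a relative depth of 8.98, and the peak of 30 min replicate 1 was called at 2.39. The part of depth in the lengths was not tested. Called length averaged 17278 ± 8253 bp at 30 min and 3142.5 ± 524 bp in NR cells (SD, n = 2 each), a 5.50-fold difference. The fitted log2 change was 2.19 ± 0.37 (SE), with a 95% interval of 1.25 to 3.12 and an adjusted p of 0.150 by limma. Of all genes tested, 0.989% had a change as high or higher. At 2 h the mean was 23747 ± 867 bp, 7.56-fold that of NR cells, with a log2 change of 2.41 ± 0.37 (interval 1.48 to 3.35, adjusted p = 0.0881). With a pseudocount of 1000 bp in place of 100 bp the 2 h change passed the threshold (2.31, adjusted p = 0.0226). The 2 h libraries differed from the 30 min libraries by 0.23 ± 0.37 (interval -0.71 to 1.16, adjusted p = 0.902), and the shorter 2 h peak (23134 bp) barely exceeded the longer 30 min peak (23114 bp).

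**Figure D1:**
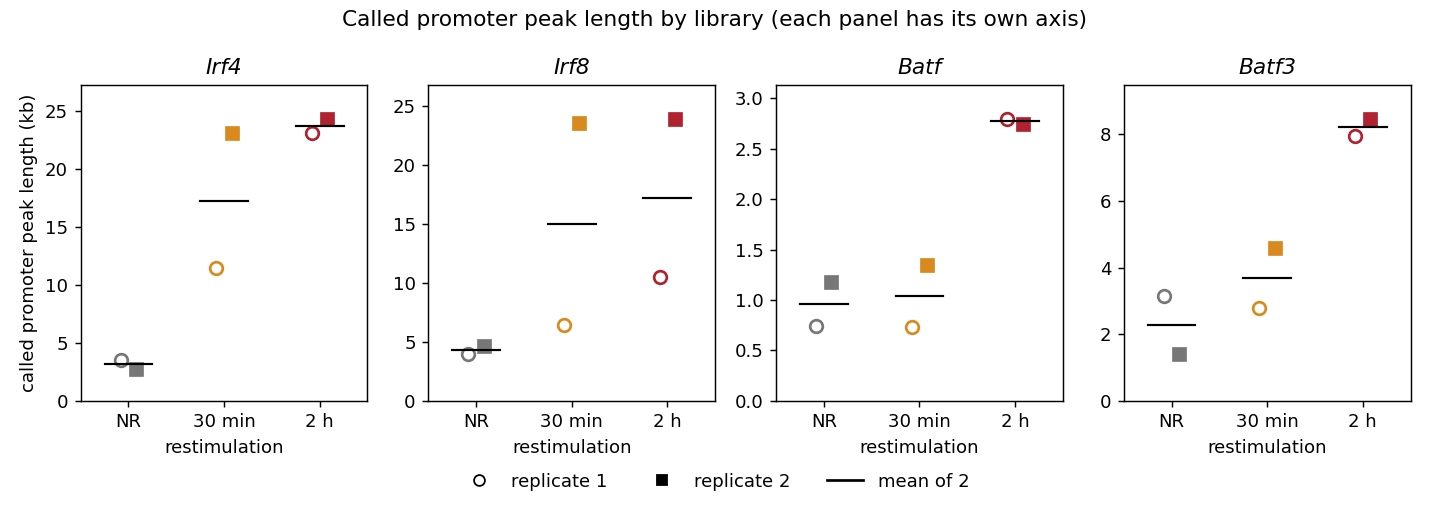
Called promoter peak length in kb (vertical axes, each panel with its own scale) of Irf4, Irf8, Batf and Batf3 in NR cells and after 30 min and 2 h of restimulation. Open circles are replicates 1, filled squares replicates 2 and bars the mean of 2, and Irf4 and Batf3 peaks are longest in both 2 h libraries, at 23134 and 24360 bp and at 7959 and 8469 bp.

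The Irf4 peak grew along the gene rather than around its start. The gene spans chr13:30749258-30766927 in the deposited annotation (mm10), 17670 bp. Upstream of the start the peak reached 1683 and 929 bp in NR libraries, 1837 and 2263 bp at 30 min and 2377 and 2270 bp at 2 h. Downstream it reached 1829 and 1842 bp past the start in NR cells, 9604 and 20850 bp at 30 min and 20756 and 22089 bp at 2 h. In NR cells it thus ended within the first 2 kb of the gene in both libraries. Beyond it NR replicate 1 had 2 separate summits in the gene, 2546 and 3765 bp past the start, and NR replicate 2 had 0. Those 2 summits lay outside the called length. In 30 min replicate 2 and in both 2 h libraries a single unbroken peak ran over the whole gene and 3181, 3087 and 4420 bp beyond its end. In 30 min replicate 1 it ended inside the gene, and 4 separate summits followed between there and the gene end, also outside the called length. Among 8606 genes of at least 5000 bp, 19 (0.221%) were covered from start to end by a promoter peak in both 2 h libraries and in neither NR library, and Irf4 was the longest of the 19. At 30 min the share was 0.105%, and Irf4 was not among them because of replicate 1. Its summit lay 16 and 5 bp after the start in NR cells, 11 and 21 bp at 30 min and 67 and 0 bp at 2 h, so the point of highest signal stayed at the promoter.

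**Figure D2:**
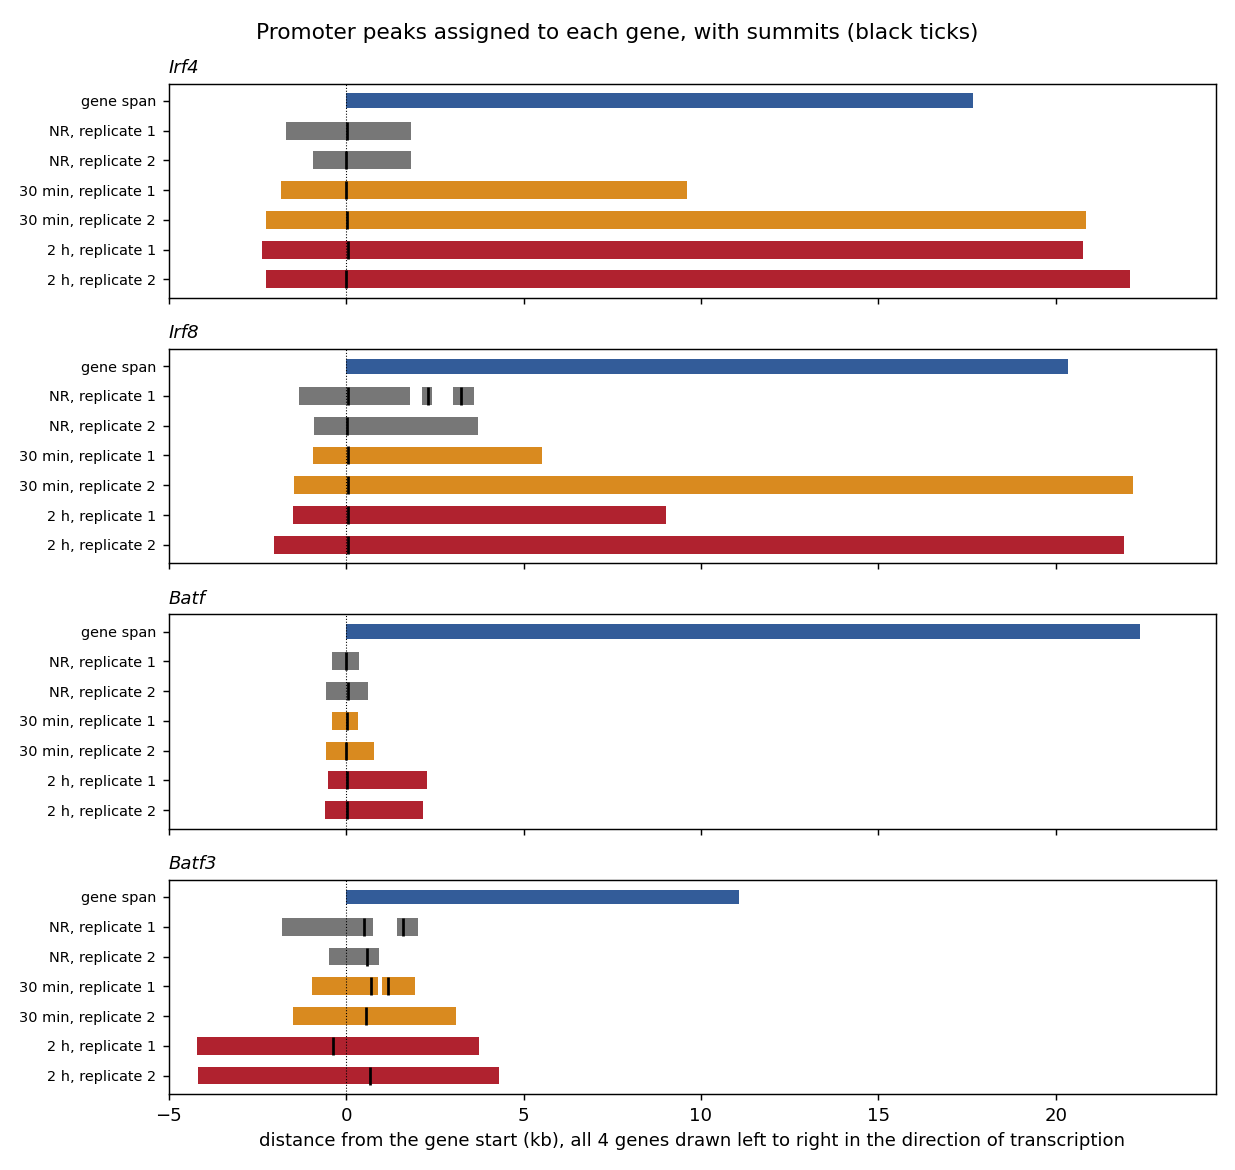
Promoter peaks assigned to each of the 4 genes in each library, as bars along the distance from the gene start in kb, with black ticks at the summits and the gene span in blue. The Irf4 bars end 20756 and 22089 bp past the start at 2 h and 1829 and 1842 bp past it in NR cells, while Batf bars reach at most 2279 bp.

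Irf8 already held a strong promoter peak in NR cells and had longer ones in each stimulated library. Called length was 4000 and 4617 bp in NR libraries, 6474 and 23637 bp at 30 min and 10505 and 23957 bp at 2 h. The stimulated libraries lay above both NR libraries, and within each time replicate 2, the deeper library, was the longer by far. At 30 min the mean was 15055.5 ± 12136 bp against 4308.5 ± 436 bp in NR cells, a log2 change of 1.35 ± 0.51 (interval 0.06 to 2.63, adjusted p = 0.610 by limma). At 2 h it was 17231 ± 9512 bp, a log2 change of 1.38 ± 0.51 against NR (interval 0.10 to 2.67, adjusted p = 0.373). Both changes rested partly on replicates 2: the 30 min change was 0.81 without 30 min replicate 2, and the 2 h change 0.91 without 2 h replicate 2. Between 2 h and 30 min the groups overlapped, with a difference of 0.04 ± 0.51 (interval -1.25 to 1.32, adjusted p = 0.990), and its sign turned without 30 min replicate 1 (-0.49) or without 2 h replicate 2 (-0.44). How much of the spread is due to depth was not tested.

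The Irf8 gene lies at chr8:120736358-120756692. In NR replicate 1 its called DNA fell into 3 pieces, which together ended 3618 bp past the start, and in NR replicate 2 a single peak ended at 3723 bp. The end moved to 5531 and 22168 bp past the start at 30 min and to 9005 and 21915 bp at 2 h. In both deeper stimulated libraries the peak thus covered the whole gene and ended 1834 bp (30 min) and 1581 bp (2 h) beyond it. In the shallower ones the peak stopped inside the gene and was followed by further summits, 7 in the gene at 30 min and 11 at 2 h. These further summits lay outside the called length, which in the deeper libraries took in the whole gene. NR replicate 2, the deepest library, had no further summit in the gene after the promoter. By fold enrichment over local background, which ranks peaks only within a list, the Irf8 peak stood at rank 51 of 9360 and 666 of 10383 in NR cells. It stood at 33 of 9074 and 1104 of 10680 at 30 min and at 51 of 10549 and 618 of 10658 at 2 h. Irf4 ranked at 1001 and 3484 in NR cells, 501 and 1886 at 30 min and 123 and 1659 at 2 h, in the same lists. In each library Irf8 thus stood higher than Irf4.

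Batf differed in time, with longer called DNA at 2 h and not at 30 min. Its promoter peak covered 739 and 1182 bp in NR libraries, 729 and 1349 bp at 30 min and 2796 and 2748 bp at 2 h. The 30 min and NR libraries overlapped, and both 2 h libraries lay above the other 4. At 30 min the mean was 1039 ± 438 bp against 960.5 ± 313 bp in NR cells, with a log2 change of -0.08 ± 0.17 (interval -0.52 to 0.35, adjusted p = 0.961 by limma). The sign of that small value turned without NR replicate 2 (0.06) and with no centring (0.08). At 2 h the mean was 2772 ± 33.9 bp, 2.89-fold that of NR cells and 2.67-fold that of 30 min cells. The log2 change at 2 h was 0.99 ± 0.17 against NR (interval 0.56 to 1.43, adjusted p = 0.112) and 1.07 ± 0.17 against 30 min (interval 0.64 to 1.51, adjusted p = 0.310). By unadjusted p (0.00119 by limma), Batf ranked at 38 of 9908 genes in the comparison of 2 h with 30 min. By log2 change it ranked at 810 there, and 8.18% of genes had a change as high or higher. Relative depth was 3.76 in 2 h replicate 1, 8.98 in NR replicate 2 and 7.09 in 30 min replicate 2, and its part in the Batf lengths was not tested.

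The Batf gene spans chr12:85686720-85709087, 22368 bp, of which the promoter peak took a small share at each time. The peak ended 353 and 613 bp past the start in NR cells, 342 and 788 bp at 30 min and 2279 and 2154 bp at 2 h. Upstream its edge lay between 385 and 593 bp from the start in the 6 libraries, so the added length was downstream. A second, separate peak inside the gene had its summit 18.9 kb past the start, near chr12:85705517-85705671, in all 6 libraries. Its exon or intron context was not analysed here. Within the same lists its -log10 q exceeded that of the promoter peak in 5 of 6 libraries. It was 37.0 and 155 in NR cells, 40.8 and 281 at 30 min and 136 and 246 at 2 h, where the promoter peak had 29.9 and 90.7 in NR cells, 47.3 and 146 at 30 min and 131 and 217 at 2 h. The exception was 30 min replicate 1. A further summit 11.6 kb past the start was found in 4 libraries, NR replicate 2, 30 min replicate 2 and both at 2 h, but not in NR replicate 1 or 30 min replicate 1, the 2 shallowest.

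Batf3 had its longest peaks at 2 h. Called length was 3138 and 1412 bp in NR libraries, 2800 and 4599 bp at 30 min and 7959 and 8469 bp at 2 h. The 30 min and NR libraries overlapped, and both 2 h libraries lay above the other 4. The mean was 3699.5 ± 1272 bp at 30 min and 2275 ± 1220 bp in NR cells, a log2 change of 0.58 ± 0.46 (interval -0.57 to 1.73, adjusted p = 0.773 by limma), which turned to -0.14 without NR replicate 2. At 2 h the mean was 8214 ± 361 bp, 3.61-fold that of NR cells. The log2 change at 2 h was 1.43 ± 0.46 against NR (interval 0.28 to 2.58, adjusted p = 0.324) and 0.85 ± 0.46 against 30 min (interval -0.30 to 2.01, adjusted p = 0.866). Against NR it was 0.72 without NR replicate 2 and 2.14 without NR replicate 1.

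The Batf3 peak widened to both sides. The gene spans chr1:191097880-191108943 in the deposited annotation, and its start in RefSeq lies 534 bp further downstream. At 2 h the peak began 4209 and 4165 bp before the start and ended 3749 and 4303 bp past it. In NR cells its first base lay 1794 and 488 bp before the start and its last 2014 and 923 bp past it, in 2 pieces in replicate 1. A separate summit 2.5 kb before the start was present in both NR and both 30 min libraries and in neither 2 h library, where the promoter peak covered that position. Counted by position, within the gene and 1000 bp on each side, Batf3 measured 2344 and 1412 bp in NR libraries, 2800 and 4101 bp at 30 min and 4750 and 5304 bp at 2 h. On that count the log2 change at 2 h was 0.94 against NR and 0.23 against 30 min. By fold enrichment its best peak ranked at 5891 and 7567 in NR cells, 6682 and 6634 at 30 min and 2934 and 3026 at 2 h, below Irf4, Irf8 and Batf in each list.

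By counts, 2 of the 4 genes at 30 min (Irf4 and Irf8) had longer called DNA than NR in both libraries, without overlap, where 11.5% of all genes did. At 2 h all 4 did, and so did 52.3% of all genes, a background against which a count of 4 says little. At 2 h against 30 min, Irf4, Batf and Batf3 did, where 17.0% of all genes did. After centring, the median log2 change of the 4 was 0.96 for 30 min and 1.41 for 2 h against NR and 0.54 for 2 h against 30 min, beside -0.04, -0.03 and -0.01 over all genes. Changes at 2 h against NR were matched or exceeded by 1.88% of genes for Irf4 and 6.88% for Irf8. The shares were 10.9% for Batf and 6.53% for Batf3. The 30 min and 2 h comparisons share the NR libraries, so their values are not independent of each other. Ranked by called length within each library, Irf4 stood at place 200 of 8359 and 472 of 9405 genes in NR cells, 26 of 8058 and 8 of 9704 at 30 min and 3 of 9310 and 7 of 9700 at 2 h. Irf8 stood at 153 and 164 in NR cells, 96 and 7 at 30 min and 69 and 9 at 2 h. Batf stood at 4685 and 3407 in NR cells, 4381 and 4525 at 30 min and 880 and 1262 at 2 h, and Batf3 at 247 and 2351, 416 and 605, and 139 and 192.

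**Figure D3:**
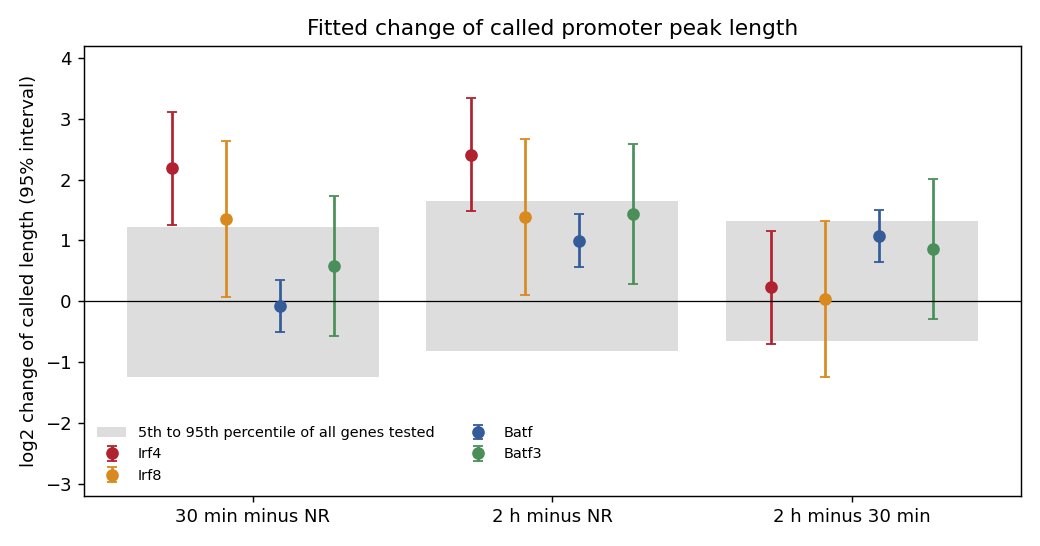
Fitted log2 change of called promoter peak length (vertical axis) for Irf4, Irf8, Batf and Batf3 in 3 comparisons, with 95% intervals from limma as bars. Grey bands span the 5th to 95th percentile of 9908 genes, and Irf4 lies above the band at 30 min (2.19) and at 2 h (2.41) against NR. Irf8 also lies above it at 30 min (1.35), while Batf lies near 0 at 30 min (-0.08). At 2 h against NR, Irf8 (1.38), Batf (0.99) and Batf3 (1.43) lie inside the band, whose upper edge is 1.65.

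Beyond the promoters, summits of all called peaks were taken within 50 kb of each gene span, and summits within 500 bp of the next were joined into sites. Around Irf8, 5 sites recurred in all 6 libraries, the promoter and 4 upstream sites 11, 21, 36.5 and 39 kb before the start. The sites 36.5 and 39 kb upstream lie in the span of the lncRNA gene Gm39265 in RefSeq, and the other two lie in no gene span there. Their -log10 q ranged from 3.31 to 167 over the libraries, below that of the Irf8 promoter, which ranged from 210 to 459. A site 27.1 kb upstream appeared in 30 min replicate 2 and both 2 h libraries and in neither NR library, and one 34.0 kb upstream in both NR libraries and 30 min replicate 1 only. Summits numbered 8 and 9 in NR cells, 17 and 9 at 30 min and 22 and 9 at 2 h. Both high counts belong to libraries in which the gene was called in pieces, as it also was in NR replicate 1, which had 8.

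Around Irf4, a site 64.5 kb past the start, in the span of the neighbouring gene Exoc2, was found in all 6 libraries. A site 43.3 kb past the start, also in Exoc2, was found in each library except NR replicate 1, and one at 37.2 kb, between the genes, in 4 libraries. NR replicate 1 is the shallowest library, and the part of depth in this was not tested. Summits numbered 5 and 7 in NR cells, 12 and 6 at 30 min and 5 and 6 at 2 h. Just past the Irf4 end, a site 18 kb from the start was called in both NR libraries and 30 min replicate 1, the libraries whose promoter peak did not reach it.

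Downstream of Batf3 no summit was called in either NR library. There were 0 and 3 at 30 min and 6 and 4 at 2 h. Counting only summits with a -log10 q of at least 5, there were 0 and 2 at 30 min and 4 and 3 at 2 h. One of these sites, 13.4 kb past the start, was shared by 30 min replicate 2 and both 2 h libraries, and one 17.3 kb past it by both 2 h libraries. The site in all 6 libraries around Batf3 lay 35.0 kb upstream, in the span of Tatdn3 in RefSeq. That end of Tatdn3 overlaps the start of Nsl1, which encodes a kinetochore subunit. All summits around Batf3 numbered 4 and 3 in NR cells, 4 and 6 at 30 min and 9 and 11 at 2 h. Around Batf they numbered 2 and 4, 2 and 7, and 3 and 6, with more in the deeper library of each pair.

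**Figure D4:**
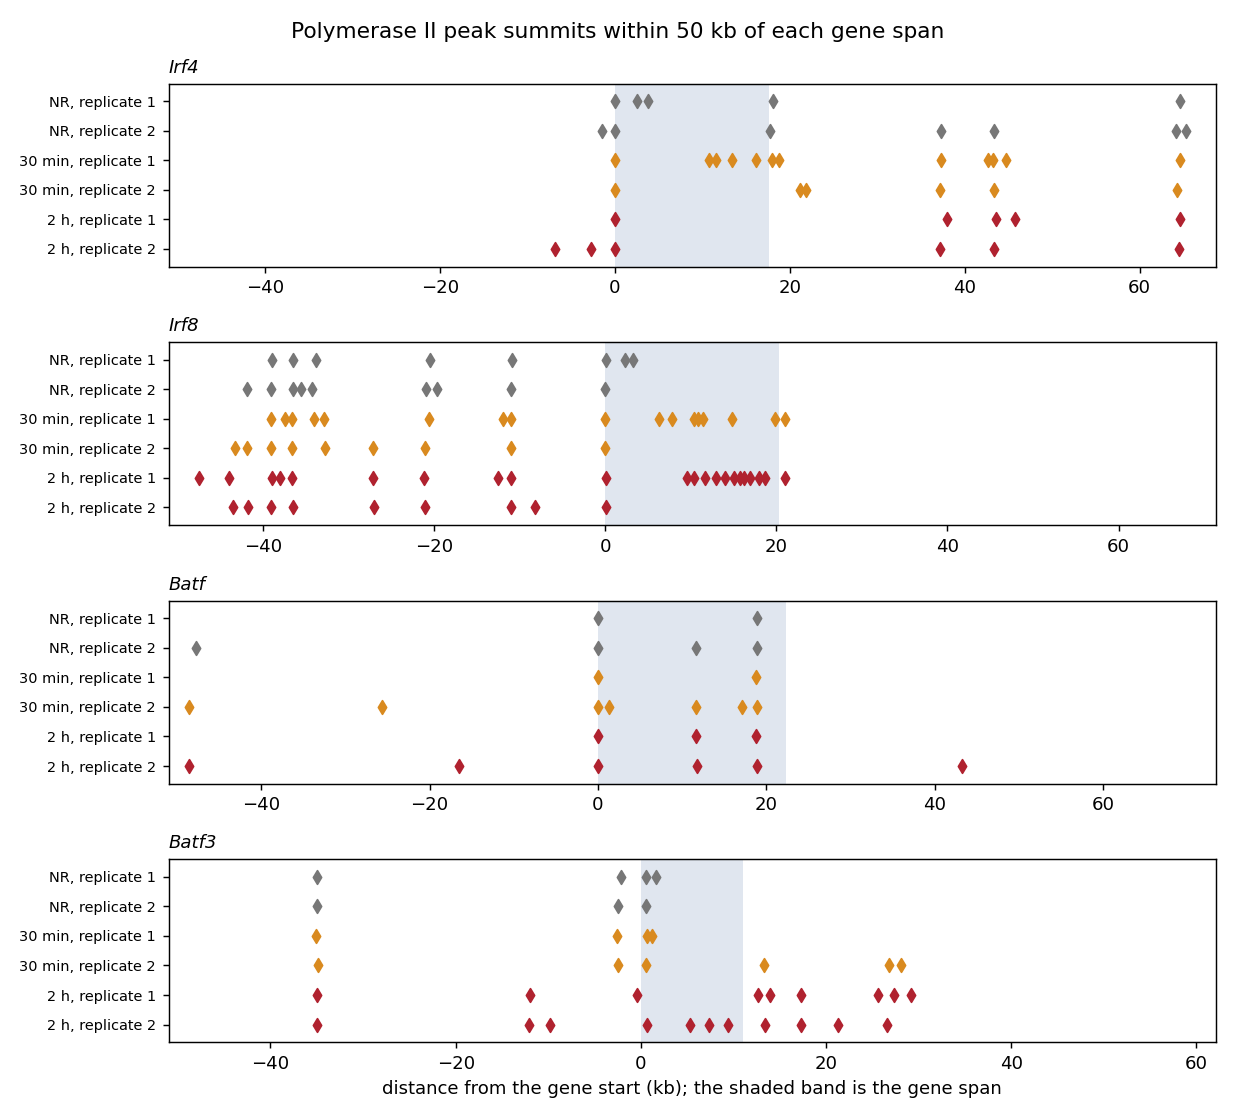
Positions of polymerase II peak summits within 50 kb of each gene span, by library, against the distance from the gene start in kb, with the gene span shaded. Around Irf8, 4 upstream sites recur in all 6 libraries, Batf has a second site 18.9 kb past its start in all 6, and downstream of Batf3 summits number 6 and 4 at 2 h and 0 and 0 in NR cells.

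None of the neighbouring genes passed the threshold. Dusp22, a dual specificity phosphatase gene upstream of Irf4, had 438 and 1046 bp in NR libraries, 874 and 1116 bp at 30 min and 1715 and 1769 bp at 2 h, with a log2 change of 0.31 at 30 min against NR (adjusted p = 0.809) and 0.75 at 2 h against NR (adjusted p = 0.408). Exoc2, an exocyst subunit gene downstream of Irf4, had a log2 change of -0.19 at 30 min (adjusted p = 0.942) and 0.42 at 2 h (adjusted p = 0.651). Nsl1, upstream of Batf3, had -0.20 at 30 min (adjusted p = 0.814) and -0.13 at 2 h (adjusted p = 0.815). For 2 h against 30 min the log2 change was 0.44 for Dusp22 and 0.61 for Exoc2, both above the 0.23 of Irf4, and 0.07 for Nsl1. Jdp2 and Flvcr2, the annotated protein-coding neighbours of Batf, had no assigned promoter peak in any library.

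Of the rest of the IRF family, 5 of 7 genes were tested and none passed in any comparison, with a median log2 change of 0.05 at 30 min and 0.07 at 2 h against NR. Irf1, a mediator of interferon gamma responses, had 2553 and 3236 bp in NR libraries, 5016 and 12200 bp at 30 min and 3391 and 5588 bp at 2 h (1.25 at 30 min, adjusted p = 0.222, and 0.11 at 2 h). Irf5 had 573 and 918 bp at 2 h and 0 and 380 bp in NR cells (adjusted p = 0.557). The 3 genes of IRF2 binding corepressors did not pass, with medians of -0.31 at 30 min and 0.04 at 2 h. Irf2bpl had a log2 change of -0.65 (adjusted p = 0.254) and Irf2bp2 one of 0.54 (adjusted p = 0.435), both at 2 h against NR.

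Among 13 leucine zipper partners and relatives, which include the JUN partners of BATF, 11 were tested and none passed, with a median of 0.93 at 30 min and 0.46 at 2 h. Fosb, an AP-1 subunit, had no peak in NR cells, 844 and 2030 bp at 30 min and 528 and 653 bp at 2 h (adjusted p = 0.0534 at 30 min and 0.107 at 2 h). Fosl1, which encodes the AP-1 subunit FRA1, had no peak in NR cells, 0 and 722 bp at 30 min and 622 and 1300 bp at 2 h (adjusted p = 0.329 at 2 h). Batf2 and Jdp2 had no assigned peak. Of 6 Ets and Ikaros partners 4 were tested and none passed, with medians of 0.41 at 30 min and 0.53 at 2 h. Ets1, a T cell transcription factor, had 21070 and 45240 bp at 2 h and 9466 and 12367 bp in NR cells (adjusted p = 0.549), and Ikzf2 had 2041 bp in 30 min replicate 2, 820 bp in 2 h replicate 2 and no peak in the other libraries (log2 change 2.05 at 30 min, adjusted p = 0.773, and adjusted p = 0.792 at 2 h).

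All 10 genes of signals known to feed Irf4 and Batf were tested and none passed, with medians of 0.40 at 30 min and 0.33 at 2 h. Nfatc1, a calcium-responsive factor, had 4154 and 11815 bp at 30 min and 2179 and 3539 bp in NR cells (1.15, adjusted p = 0.417). Of 19 genes known as targets of BATF and IRF4, 15 were tested, 1 passed at 30 min and none at 2 h, with medians of 0.98 and 0.84. The 1 was Pdcd1, the gene of the receptor PD-1, with 2069 and 2767 bp at 30 min and 416 and 618 bp in NR cells (1.87, adjusted p = 0.0452). Il21, which encodes interleukin 21 and was chosen after its values were seen, had 2045 and 1535 bp in NR libraries, 13958 and 16029 bp at 30 min and 15161 and 15683 bp at 2 h (adjusted p = 0.0720 at 30 min and 0.0738 at 2 h against NR). The T cell and Th1 marker lists held no gene past the threshold either, with medians of 0.44 and 0.76 at 30 min and of 0.91 and 0.61 at 2 h. Cd8b1 had 0.13 at 30 min and -0.12 at 2 h. The largest values in the T cell and Th1 lists were those of Cd5 (1.93) and Cd2 (1.53) at 2 h and of Tbx21 (1.61) and Cxcr3 (1.35) at 30 min. Cxcr3 had 706 bp in 30 min replicate 2, 574 bp in 2 h replicate 2 and no peak in the other libraries. Its 30 min change thus rested on 1 library (SE 1.44, adjusted p = 0.819 by limma).

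Genes with the pattern most like each of the 4 were sought by Pearson's r of centred log2 called length over the 6 libraries, which share depth differences, so r is a description only. For Irf4 these were Themis (r = 0.998), Adap1 (0.998) and Fhl2 (0.995), and for Irf8 Gnptab (0.997), Rpl30 (0.996) and Tardbp (0.996). For Batf they were Ctsz (0.989), Ece1 (0.985) and Ikbke (0.985), and for Batf3 Tbrg4 (0.963), Gramd1b (0.953) and Odc1 (0.938). Themis, a T cell receptor signalling protein gene, had 2795 and 2890 bp in NR libraries, 5357 and 10305 bp at 30 min and 9311 and 10960 bp at 2 h. Ece1, a membrane peptidase gene, had 1050 and 1392 bp in NR libraries, 817 and 1526 bp at 30 min and 4531 and 4355 bp at 2 h, and it passed the threshold at 2 h against NR (log2 change 1.32, adjusted p = 0.0489). Between the 4 genes themselves r was 0.842 for Irf4 with Irf8, 0.784 for Irf4 with Batf3, 0.622 for Batf with Batf3, 0.555 for Irf8 with Batf3, 0.472 for Irf4 with Batf and 0.322 for Irf8 with Batf.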

How the data were processed

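RNA polymerase II ChIP-seq was analysed in 6 libraries, 2 each of NR, 30 min and 2 h cells. Each library has its own deposited peak lists. The submitters' processing notes name BWA 0.7.13, Picard 1.119, MACS2 2.1.0 and the build mm10, without role or order. Per the file headers, the deposited tables give for each promoter peak a pileup (signal, coverage at the summit), a fold enrichment (ratio over the local level) and significance as -log10 of p and of the q-value. These are the authors' values, used only within a list. The table holds peaks within 1000 bp of a transcription start, each assigned by the authors to 1 gene, by a tool not given in the sources used here. Positions are 1-based.

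Called bp per gene were summed, taken as log2(bp + 100), centred on 7410 genes with a peak in all 6 libraries and fitted with limma 3.58.1 in R 4.3.3 (group as the term, eBayes with a trend), for the 9908 genes seen in 2 or more libraries. The fit was also run on simulated data with the same spread for every gene and no depth differences. That run is thus no check on the depth differences here. The members and lists were chosen with earlier results of these data known. Named beside the 4 are genes within 50 kb, list genes past the threshold or else the 2 with the largest change at 30 min or 2 h against NR, and the 3 most alike by r among genes with at least 0.5 times the member's range. Some genes that this rule names are not reported here. Deviations from the group mean of same-numbered libraries correlated over genes. Here r was 0.442 for NR and 30 min, 0.269 for NR and 2 h and 0.408 for 30 min and 2 h. The main fit had no replicate term, and a replicate block was fitted as an alternative. Replicate 2 was the deeper library in each group, and whether the replicate numbers mark true pairs was not tested. Relative depth is inferred from the pileup steps and the smallest background and covers no difference in fragment length. Interval widths cover the spread between libraries. Promoter sequences are from RefSeq (GRCm38.p6), where all 4 genes matched by symbol. Motif windows and figures used Python 3.11.15.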

Additional observations from a re-analysis of the deposited data

How the results depend on the processing

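Of the 4 genes in 3 comparisons, Irf4 at 2 h against NR crossed the threshold in 1 of 8 alternatives, the pseudocount of 1000 bp (2.31, adjusted p = 0.0226), and over its alternatives adjusted p ranged from 0.0226 to 0.149, and from 0.0531 to 0.452 leaving out 1 library. Signs turned for 3 small values: Batf at 30 min against NR with no centring (0.0797), and -0.222 to 0.0607 leaving out 1 library, above 0 without NR replicate 2; Batf3 at 30 min, -0.136 to 1.29, below 0 without NR replicate 2; and Irf8 at 2 h against 30 min, by position (-0.00753) and -0.491 to 0.571, below 0 without 30 min replicate 1 and without 2 h replicate 2 (-0.44). The causes were not tested. The replicate block changed no call of the 4 (Irf4 at 2 h, 2.41, adjusted p = 0.110), and it gave 19, 33 and 0 called genes beside 24, 43 and 0. Leaving out 1 library, changes against NR ranged from 1.85 to 2.52 (30 min) and 2.08 to 2.74 (2 h) for Irf4, 0.81 to 1.88 and 0.91 to 1.86 for Irf8, and at 2 h 0.85 to 1.13 for Batf and 0.72 to 2.14 for Batf3. By position, Batf3 at 2 h against 30 min was 0.23 in place of 0.85. Called genes at 30 min against NR, 24, became 40 with a pseudocount of 1000 bp (33 higher) and 4 to 227 without 1 library (4 without NR replicate 1, 68 and 227 without 30 min replicates 1 and 2, 7 and 11 without 2 h replicates 1 and 2). Without 30 min replicate 2 most calls turned lower (52 higher and 175 lower, with 23 and 1 over all 6 libraries). At 2 h against NR, 43 became 112 with that pseudocount, 79 with quantile normalization (59 higher, against 37 of 43), 28 by position (all higher) and 173 with only the 4 libraries of the groups compared, and 4 to 186 without 1 library (4 without NR replicate 1, 158 and 186 without 30 min replicates 1 and 2, 5 and 6 without 2 h replicates 1 and 2). At 2 h against 30 min, 0 became 8 with that pseudocount, 1 with quantile normalization and 0 to 206 without 1 library (4 and 206 without 30 min replicates 1 and 2). A group left with 1 library is assumed to vary like the others. Mean summit counts were lower with a window of 20 kb (for Irf8 in NR cells 3.5, with 8.5 in 50 kb). Depth differs up to 8.98 times between libraries, and called length cannot separate it from occupancy.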
